A study of Homo sapiens with 32 samples.

Results

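The auxin indole-3-acetic acid (IAA) was tested here on cells that carry no degron for it to act on. The comparison set 4 libraries of unstressed parental cells given auxin against 4 of the same cells given the vehicle DMSO, chosen by their sample labels, and these are 8 of the 32 libraries of the series. HCT116 is a human cell line from a colorectal carcinoma, and its parental form here, called WT in the labels, has no mAID tag on IGF2BP3. These cells carry a doxycycline-inducible OsTIR1, a rice F-box protein that joins the cell's own SCF ubiquitin ligase and binds auxin. Both groups received doxycycline at 200 ng/mL for 24 h and the uridine analogue 4-thiouridine (s4U) at 250 µM for 2 h, and neither received tunicamycin. The auxin group received 500 µM IAA for 9 h before collection. Each condition was 1 well of a 24-well plate, in quadruplicate, and the labels do not say whether the wells shared a plate or a day, and the tests therefore rest on well-to-well spread alone, which may be technical. Because doxycycline and OsTIR1 are common to both groups, an effect of auxin alone and one that needs OsTIR1 cannot be told apart.

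IAA is made from tryptophan by plants and by gut bacteria, and it is one of the indoles known to bind the aryl hydrocarbon receptor (AhR). AhR is a transcription factor that enters the nucleus with its ligand, pairs with ARNT and binds DNA at a core motif to induce genes of foreign-compound and aldehyde metabolism, among them CYP1A1, CYP1B1, TIPARP and, in several epithelia, ALDH1A3. SLAM-seq reads RNA made during the s4U pulse as T-to-C conversions, so each library gives a total read count per gene and a count of labelled reads, those with conversions. The labelled share of a gene is its labelled reads as a percent of its reads.

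ALDH1A3 and CYP1B1 rose with auxin. ALDH1A3, an aldehyde dehydrogenase that makes retinoic acid, was read at 176, 170.4, 168 and 177 CPM (read counts scaled to a common library size) in the vehicle libraries and at 246, 257, 258 and 292 CPM in the auxin libraries. All 4 auxin libraries were above all 4 vehicle libraries. Mean and SD over 4 libraries were 173 ± 4.39 CPM with vehicle and 263 ± 20.1 CPM with auxin, and ALDH1A3 rose by 0.61 ± 0.09 on the log2 scale (SE, edgeR adjusted p = 0.00148). CYP1B1, a cytochrome P450 that oxidises aromatic hydrocarbons and oestrogens, was read at 23.2, 27.7, 15.9 and 20.2 CPM with vehicle and at 37.3, 31.9, 34.0 and 35.5 CPM with auxin. Again no vehicle library reached the lowest auxin library, and the log2 fold change was 0.68 ± 0.14 (SE, edgeR adjusted p = 0.00902). The CYP1B1 call held under all 18 alternative settings tried, with adjusted p from 0.000293 to 0.045 by edgeR or DESeq2, and the ALDH1A3 call under 17 of 18, the exception being 0.0684 without the 2 vehicle libraries of lowest T coverage described further on.

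The same 2 genes were higher in auxin comparisons that share no library with this one. In unstressed cells whose IGF2BP3 carries mAID on both alleles, ALDH1A3 was 0.62 ± 0.09 and CYP1B1 0.69 ± 0.15 higher on the log2 scale (edgeR adjusted p = 0.0022 and 0.0353). In parental cells stressed with 5 µg/mL tunicamycin for 5 h, the log2 fold changes were 0.70 ± 0.09 and 0.93 ± 0.14 (edgeR adjusted p = 0.000233 and 0.00213), and these were the 2 genes of 11186 that passed there (0.0179%). The stressed auxin libraries read ALDH1A3 at 243, 251, 258 and 248 CPM, and the stressed vehicle libraries at 150.1, 138, 179.9 and 148 CPM. The difference in the auxin effect between stressed and unstressed parental cells was 0.09 ± 0.13 for ALDH1A3 and 0.25 ± 0.20 for CYP1B1 (edgeR adjusted p = 0.670 and 0.421). Between tagged and parental cells it was 0.01 ± 0.13 and 0.01 ± 0.20 (edgeR adjusted p = 0.9998 for both).

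**Figure D1:**
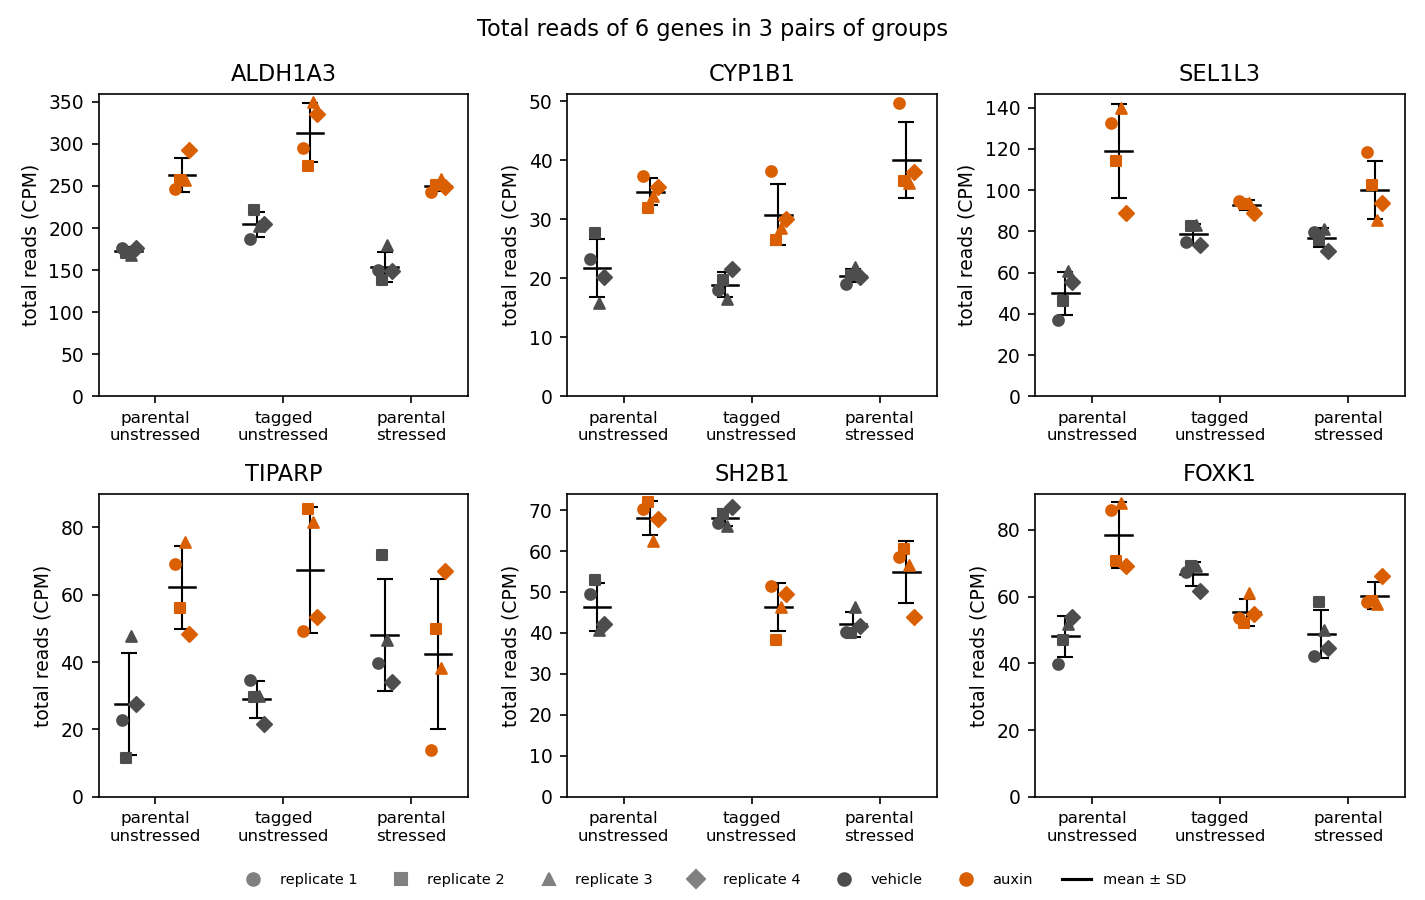
Total reads (CPM, vertical axis from 0) of 6 genes in each of 4 vehicle (grey) and 4 auxin (orange) libraries of unstressed parental, unstressed tagged and stressed parental cells, with mean ± SD in black. ALDH1A3 and CYP1B1 are higher with auxin in all 3 pairs of groups, while SH2B1 is higher with auxin in unstressed parental cells and lower in unstressed tagged cells.

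Promoters of 3 of the 7 AhR targets that passed are shown, the enzymes among the 6 with an entry in the promoter table; NFE2L2, AREG and EREG, which are not enzymes, held 1, 2 and 1 matches to the motif. The 250 bases before the gene start of ALDH1A3 (chr15:100879581-100879830, plus strand), TIPARP (chr3:156674340-156674589, plus strand) and TXNRD1 (chr12:104215529-104215778, plus strand) are from RefSeq, build GRCh38.p14, and are written 5′ to 3′ with each match to the AhR core GCGTG, or CACGC for the other strand, in capitals.
ALDH1A3: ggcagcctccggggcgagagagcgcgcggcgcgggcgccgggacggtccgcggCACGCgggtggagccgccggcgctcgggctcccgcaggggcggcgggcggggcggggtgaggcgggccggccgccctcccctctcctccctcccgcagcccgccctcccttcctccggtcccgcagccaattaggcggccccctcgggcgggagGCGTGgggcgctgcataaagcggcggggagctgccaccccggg
TIPARP: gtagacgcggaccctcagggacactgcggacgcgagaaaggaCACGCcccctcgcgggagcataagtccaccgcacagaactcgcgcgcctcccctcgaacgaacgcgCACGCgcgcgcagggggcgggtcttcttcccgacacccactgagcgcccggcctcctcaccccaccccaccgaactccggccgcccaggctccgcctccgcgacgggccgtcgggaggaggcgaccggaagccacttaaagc
TXNRD1: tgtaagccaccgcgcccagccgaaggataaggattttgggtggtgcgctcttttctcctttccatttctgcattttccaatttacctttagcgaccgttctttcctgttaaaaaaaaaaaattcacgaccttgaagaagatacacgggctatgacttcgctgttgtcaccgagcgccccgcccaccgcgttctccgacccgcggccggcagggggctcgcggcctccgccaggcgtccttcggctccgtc
ALDH1A3 held 1 match on each strand, beginning 197 and 43 bases before the start, TIPARP held 2 CACGC matches, at 208 and 142 bases, and TXNRD1 held none in this window. A match to so short a motif is common. At least 1 was held by 32.2% of all 35116 RefSeq promoters of this length, and by 46.9% of the 9241 tested genes matched to one. Among the tested AhR targets 13 of 19 with a promoter held 1 (68.4%), and among all genes that passed as higher 211 of 443 did (47.6%). The letters are a description of the sequence, and no binding was measured.

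Of 36 AhR targets listed, 31 had reads and 23 could be tested. Of these 7 rose and none fell, 30.4% of the list, where 4.83% of all 11186 tested genes passed as higher and 2.33% as lower. The 4 auxin and 4 vehicle libraries did not overlap, with auxin higher, in 10 of the 23, and in 9.06% of all tested genes; for lower levels the counts were 0 and 9%. The median log2 fold change over the 23 was 0.44, and over all tested genes it was -0.01. Besides ALDH1A3 and CYP1B1 the 7 were TIPARP, TXNRD1, NFE2L2, AREG and EREG. The list was put together with earlier results of these data known, so its direction is no independent evidence.

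TIPARP, the ADP-ribosyltransferase that dampens AhR, was read at 22.9, 11.6, 47.8 and 27.5 CPM with vehicle and at 69.1, 56.0, 75.6 and 48.2 CPM with auxin, a log2 fold change of 1.17 ± 0.34 (SE, edgeR adjusted p = 0.0346). The groups just failed to touch, with vehicle replicate 3 high and auxin replicate 4 low. AREG, an EGFR ligand, showed the same order of libraries, at 39.4, 32.7, 88.2 and 50.4 CPM with vehicle and 205, 154, 251 and 91.4 CPM with auxin (1.73 ± 0.45, edgeR adjusted p = 0.0217). EREG, another EGFR ligand, changed by 0.81 ± 0.22, TXNRD1, a thioredoxin reductase, by 1.23 ± 0.31, and NFE2L2, which encodes NRF2, by 1.06 ± 0.32 (edgeR adjusted p = 0.0296, 0.0187 and 0.0407). These 5 calls were lost under 8 to 10 of the 18 alternatives, among them each of the 3 that bear on T coverage.

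CYP1A1, the textbook AhR target, did not pass in these cells. It had only 9, 7, 21 and 14 reads in the vehicle libraries and 23, 10, 24 and 18 in the auxin libraries, and its log2 fold change was 0.55 ± 0.33 (edgeR adjusted p = 0.313). In the unstressed tagged cells the same gene was 2.31 higher on the log2 scale (edgeR adjusted p = 0.00552), and the difference between the lines did not pass. AHRR, the AhR repressor, was not among the genes with reads, and ALDH3A1 had 0 to 8 reads in a library and was not tested. NQO1 stood at 0.20 ± 0.12 and AHR itself at 0.50 ± 0.37 (edgeR adjusted p = 0.305 and 0.415). MYC was 0.93 ± 0.30 higher and missed the threshold (edgeR adjusted p = 0.0526).

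**Figure D2:**
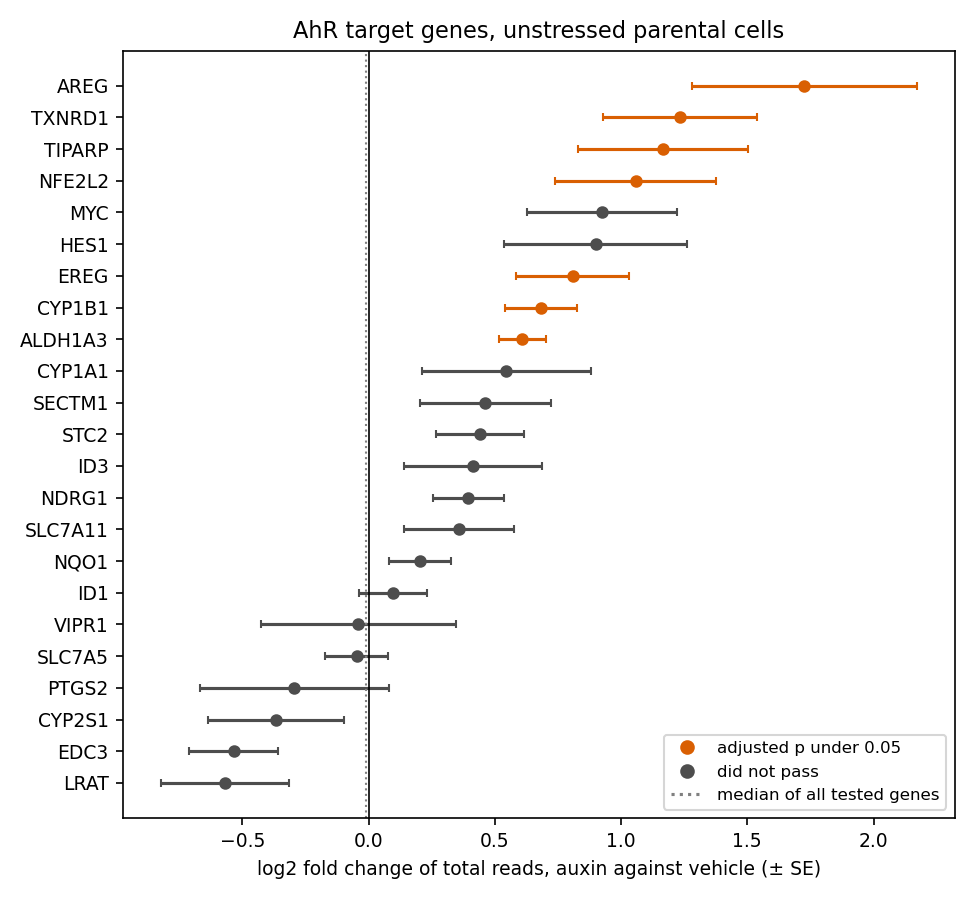
Log2 fold change of total reads, auxin against vehicle, for the 23 tested AhR targets (points, with bars of 1 SE). The 7 genes in orange passed at an adjusted p under 0.05, and the dotted line is the median of all 11186 tested genes, -0.01.

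Library composition moved with the groups, and this touches every count that follows. The vehicle libraries covered 20.3, 20.6, 22.5 and 21.8 T positions per read and the auxin libraries 22.95, 22.9, 23.3 and 22.5. Vehicle replicates 1 and 2 were lowest, and vehicle replicate 3 lay within the range of the auxin libraries (exact permutation test, two-sided p = 0.0571, where 0.0286 is the smallest possible). When the tested genes were cut into 5 equal groups by the T content of their counted region, the median log2 change of total reads ran from -0.226 in the group poorest in T through -0.082, 0.006 and 0.093 to 0.154 in the richest. With covered T positions per read as a covariate the 5 medians lay between -0.044 and 0.021. The part of this composition in the gene-wise differences was not tested beyond these fits. The 8 libraries held 2867570 to 4223557 reads in named genes and were epithelial in their markers: KRT19, KRT18, EPCAM and 10 more of 15 colon epithelial line genes had reads, CDX1 and VIL1 were at 0, and the summed level was 2293 to 2577 CPM with vehicle and 2090 to 2336 CPM with auxin. Fibroblast markers summed to 22.7 to 33.1 CPM (6 of 10 at 0, COL3A1 among them), immune markers to 3.81 to 8.86 CPM (4 of 10 at 0, PTPRC among them) and endothelial markers to at most 1.57 CPM.

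**Figure D3:**
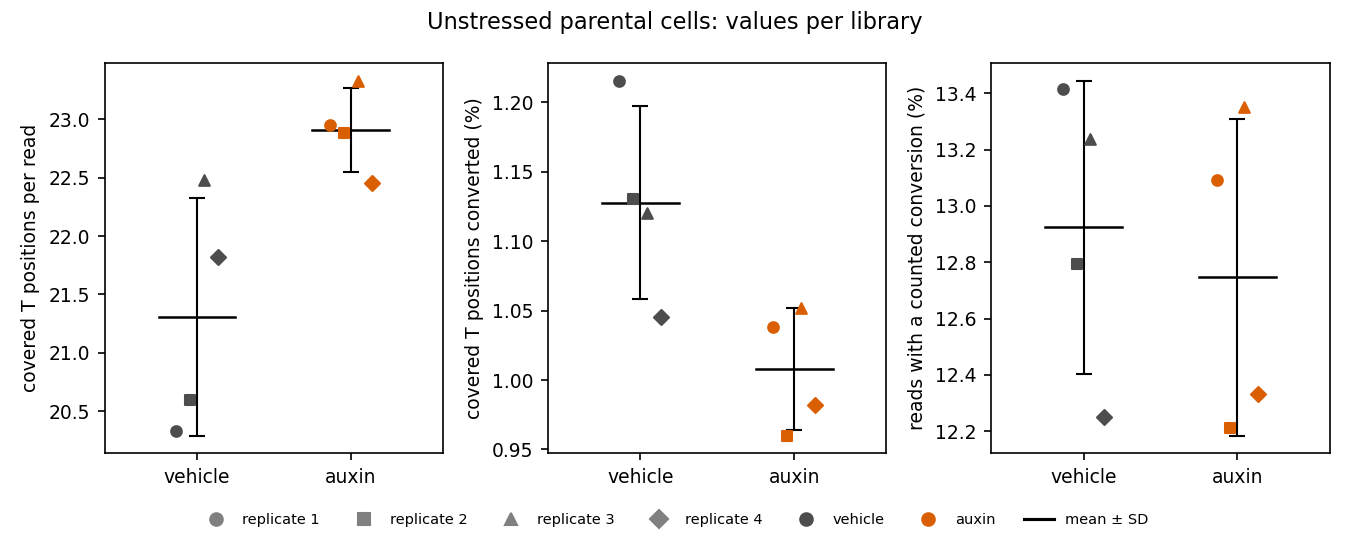
Covered T positions per read, percent of covered T positions converted and percent of reads labelled in the 4 vehicle (grey) and 4 auxin (orange) libraries of unstressed parental cells, with mean ± SD; the axes do not start at 0. Vehicle replicates 1 and 2 have the lowest T coverage, at 20.3 and 20.6.

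The share of labelled reads did not differ beyond the spread between wells, while the overlap of the groups in conversion rate depended on how it was summed. Labelled reads made up 12.9% ± 0.52 of reads with vehicle and 12.7% ± 0.561 with auxin (SD, n = 4, difference -0.178 percentage points, exact permutation test, two-sided p = 0.657). Of the covered T positions 1.13% ± 0.0698 were converted with vehicle and 1.01% ± 0.0441 with auxin (exact permutation test, two-sided p = 0.0571, adjusted over the 2 measures 0.114). The conversion rate was lower with auxin in the mean, and the highest auxin library, at 1.052%, lay above the lowest vehicle library, at 1.045%. As a median over genes with at least 100 reads it was 1.257, 1.188, 1.198 and 1.114% with vehicle and 1.096, 0.945, 1.097 and 1.014% with auxin, with no overlap. The difference was -0.151 percentage points (exact permutation test, two-sided p = 0.0286, the smallest possible, not adjusted over the 2 measures).

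Over all genes, 540 rose and 261 fell (edgeR, adjusted p under 0.05), 7.16% of 11186. The genes that rose had a median of 19.7 CPM with vehicle and 41.9 CPM with auxin. Those that fell had 141 and 104 CPM, and the rest 31.5 and 31.9 CPM. Their counted regions also differed: the median T content was 31.8% in genes that rose, 26.7% in those that fell and 29.8% in the rest, and the median length of the counted region was 1017, 418 and 1135 bases. The calls rest on a few libraries. Leaving out vehicle replicate 2 left 48 genes, auxin replicate 3 left 77, auxin replicate 1 left 102, vehicle replicate 1 left 115, vehicle replicate 4 left 240, and leaving out vehicle replicate 3 gave 1507. Without vehicle replicates 1 and 2 together, 2 genes passed, SEL1L3 and CYP1B1, an alternative with fewer samples that was added after the data were seen. At an unadjusted p under 0.05 (edgeR) that fit still held 1120 genes, against 1916 without vehicle replicate 2 and 2727 with all libraries.

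SEL1L3, a relative of the endoplasmic reticulum adaptor SEL1L, had the smallest p and was chosen for that after its values were seen. It was read at 37.2, 46.1, 60.8 and 55.5 CPM with vehicle and at 133, 114, 139.8 and 88.9 CPM with auxin. The groups did not overlap, and the log2 fold change of 1.25 ± 0.15 (SE, edgeR adjusted p = 2.5e-05) held its call under all 18 alternatives. In unstressed tagged and stressed parental cells SEL1L3 stood at 0.24 and 0.36 on the log2 scale and did not pass, and the differences from this comparison did not pass either (edgeR adjusted p = 0.107 and 0.0931).

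By the size of the change among called genes whose groups did not overlap, the 10 that led the rise were USF1, HMCES, THOC3, MRPL39, MAGEA3, CBX8, CTF1, ZNF227, POC5 and IL18. All had low levels without auxin, with vehicle means of 0.177 CPM for USF1 to 5.74 CPM for IL18. With covered T positions per read as a covariate, only ZNF227 of the 10 passed (edgeR adjusted p = 0.0113). With that covariate and without the series' smallest library none did (edgeR adjusted p from 0.0617 for ZNF227 to 0.582 for THOC3). None passed without vehicle replicates 1 and 2 either (edgeR adjusted p from 0.2135 for ZNF227 to 0.333 for MAGEA3). HMCES, which shields abasic sites in DNA, was read at 1.27, 0.892, 6.86 and 2.43 CPM with vehicle and at 70.6, 33.6, 66.2 and 8.86 CPM with auxin (log2 fold change 3.88 ± 0.76, edgeR adjusted p = 0.00786). Auxin replicate 4 was lowest of its group and vehicle replicate 3 highest of its own, an order also seen in IL18, a cytokine, at 3.18, 3.57, 11.8 and 4.38 CPM against 52.2, 24.4, 61.9 and 11.9 CPM. USF1, an E-box transcription factor, had 3 reads in all vehicle libraries, all in replicate 3, and 82 in the auxin libraries, a ratio at equal depth of 28.3 with a 95% exact interval of 9.33 to 139.8 that covers counting error only. MAGEA3 and THOC3 have near-identical copies that could split their reads, so their values are uncertain.

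Genes that fell changed less, with a median log2 change of -0.49 against 1.05 in those that rose. By the same rule the 10 that led were YJEFN3, PABPC3, TBKBP1, PLA2G6, MKKS, RARS2, TMEM63C, POLD1, HROB and DOHH, from -1.25 ± 0.39 for YJEFN3 to -0.82 ± 0.21 for DOHH on the log2 scale. POLD1, the catalytic subunit of DNA polymerase delta, was read at 44.2, 43.7, 36.2 and 44.3 CPM with vehicle and at 23.6, 25.4, 19.5 and 24.7 CPM with auxin. Its groups were far apart, at -0.85 ± 0.15 (SE, edgeR adjusted p = 0.00578), and the call held under 16 of 18 alternatives. The fits that lost the POLD1 call bear on T coverage. None of the 10 passed with T coverage as a covariate and without the smallest library. Their edgeR adjusted p ran from 0.101 for POLD1 to 0.92 for DOHH. Without the vehicle libraries of lowest T coverage none passed either (edgeR adjusted p from 0.2135 for POLD1 to 0.633 for TMEM63C). With the covariate on all libraries POLD1, RARS2, TBKBP1 and DOHH passed. RARS2, the mitochondrial arginyl-tRNA synthetase, fell by 0.92 ± 0.20 (SE, edgeR adjusted p = 0.0112). PABPC3 shares sequence with PABPC1, so its count is uncertain.

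Among the cell's own ubiquitin machinery, to which OsTIR1 attaches, 2 of 46 tested SCF, cullin-regulator and ubiquitin genes rose and 4 fell, against 4.83% and 2.33% of all genes. Among those that fell were UBB, a polyubiquitin gene, and COPS6, a COP9 signalosome subunit. UBB was read at 1893, 2210.0, 1873 and 2076 CPM with vehicle and 1371, 1466, 1412 and 1611 CPM with auxin (-0.46 ± 0.09, edgeR adjusted p = 0.00846, called under 16 of 18 alternatives). SKP2, an F-box protein, and COPS7A rose. SKP1 and CUL1, the adaptor and scaffold that OsTIR1 binds through, stood at 0.06 ± 0.18 and 0.04 ± 0.12 and did not pass (edgeR adjusted p = 0.867 for both). Of the 39 proteasome subunits tested, PSMA5 and PSMD11 rose and PSMA4 and PSME2 fell.

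IGF2BP3, untagged here, was read at 172, 167, 145 and 149 CPM with vehicle and at 151, 150.9, 135 and 141 CPM with auxin. The groups overlapped, at -0.13 ± 0.11 on the log2 scale (SE, edgeR adjusted p = 0.486). Of the 13 tested IGF2BP family members and reported targets none passed, at a median of 0.02. IGF2BP2 stood at -0.13 ± 0.12 and HMGA2, a reported IGF2BP3 target, at -0.04 ± 0.08 (edgeR adjusted p = 0.541 and 0.803), and IGF2BP1 had 0 to 6 reads in a library and was not tested.

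Stress and growth genes gave mixed counts, to be read against 4.83% higher and 2.33% lower over all genes. Of 25 NRF2 targets tested, TXNRD1, SRXN1 and NFE2L2 rose and PRDX1 fell, at a list median of -0.05. SRXN1, sulfiredoxin, was read at 62.4, 62.2, 113 and 76.2 CPM with vehicle and at 213, 175, 239 and 155 CPM with auxin (1.31 ± 0.24, edgeR adjusted p = 0.00578, called under 16 of 18 alternatives), and the groups did not overlap. The 2 fits that lost the SRXN1 call both bear on T coverage. They were that with the T covariate and without the smallest library (edgeR adjusted p = 0.065), and that without vehicle replicates 1 and 2 (0.238). HMOX1, heme oxygenase, stood at -0.28 ± 0.27 (edgeR adjusted p = 0.546).

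Against the same 4.83% and 2.33% over all genes, of 38 unfolded protein response and ATF4 or CHOP targets, HSP90B1, MANF and ALDH18A1 rose and ATF4 fell. ATF4, the transcription factor of the integrated stress response, was read at 906, 1152, 689 and 914 CPM with vehicle and at 509, 598, 529.6 and 724 CPM with auxin, a change of -0.63 ± 0.17 (edgeR adjusted p = 0.0247) although vehicle replicate 3 lay below auxin replicate 4. HSPA5, DDIT3 and XBP1 stood at -0.17, -0.19 and -0.01 and did not pass (edgeR adjusted p = 0.328, 0.572 and 0.961). Of 35 immediate-early genes KLF2, NR4A2 and CCN1 rose and none fell, at a list median of 0.24; with the T covariate 1 passed in each direction. Of 27 cytosolic heat shock genes HSPA1B, HSPA8 and BAG3 rose and HSPA4, CCT5 and HSF1 fell, and HSPA1B has a near-identical copy. With the T covariate none of the 27 rose and 7 fell, where 2.78% and 4.16% of all genes did. With the covariate and without the smallest library 1 rose and 2 fell, against 0.751% and 0.34%.

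Genes of the respiratory chain and the small ribosomal subunit, with counted regions of 174 and 56 bases in the median, were on the lower side. Of 74 oxidative phosphorylation subunits 13 fell, 17.6% against 2.33% of all genes, and 1 rose, at a list median of -0.26. The 13 came from complex I (NDUFA6, NDUFB2, NDUFS8, NDUFV2, NDUFV3), complex III (UQCRQ, UQCRH), cytochrome oxidase (COX4I1, COX5B, COX6B1, COX7A2) and ATP synthase (ATP5F1D, ATP5F1E), and the 1 that rose was NDUFB3. NDUFA6 was read at 417, 518, 361 and 442 CPM with vehicle and at 285, 275, 277 and 326.5 CPM with auxin, with no overlap (-0.58 ± 0.13, edgeR adjusted p = 0.0113). Of 32 small-subunit ribosomal proteins, whose counts are uncertain because of their many processed pseudogenes, 7 fell, RPSA, RPS2, RPS3 and RPS15A among them, at a list median of -0.35. RPS15A was read at 286, 274.5, 228 and 288 CPM with vehicle and at 161, 166.5, 158 and 188 CPM with auxin (-0.68 ± 0.13, edgeR adjusted p = 0.00609).

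These 2 lists depended on how T coverage was treated. With the T covariate on all 32 libraries, 24 oxidative phosphorylation genes and 9 small-subunit genes fell and none rose. With the same covariate and without the series' smallest library, which covered only 15.1 T positions per read and so weighs on the covariate's slope, none of either list fell, 1 oxidative phosphorylation gene rose, and the medians were -0.12 and 0.01. Without the smallest library and with no covariate, 38 oxidative phosphorylation genes fell and 9 rose, and 15 small-subunit genes fell and 0 rose. Over all 11186 genes 1265 fell and 1543 rose in that fit. Without vehicle replicates 1 and 2 none of either list passed, while their medians stayed at -0.23 and -0.24. With the T covariate, CYP1B1, ALDH1A3 and SLC7A11 were the AhR targets that passed, on 32 libraries and without the smallest. The list medians were 0.32 and 0.31. Without the smallest library and with no covariate, 14 of the 23 AhR targets rose and 1 fell, where 1543 and 1265 of 11186 genes did. Without vehicle replicates 1 and 2, only 1 AhR target passed, CYP1B1, as higher. Over all genes the covariate on 32 libraries called 311 higher and 465 lower (2.78% and 4.16%, together 6.94%), sharing 352 with the fit without it. Without the smallest library it called 84 higher and 38 lower (0.751% and 0.34%, together 1.09%), sharing 38. The fit with the covariate and without the smallest library was added after the data were seen.

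**Figure D4:**
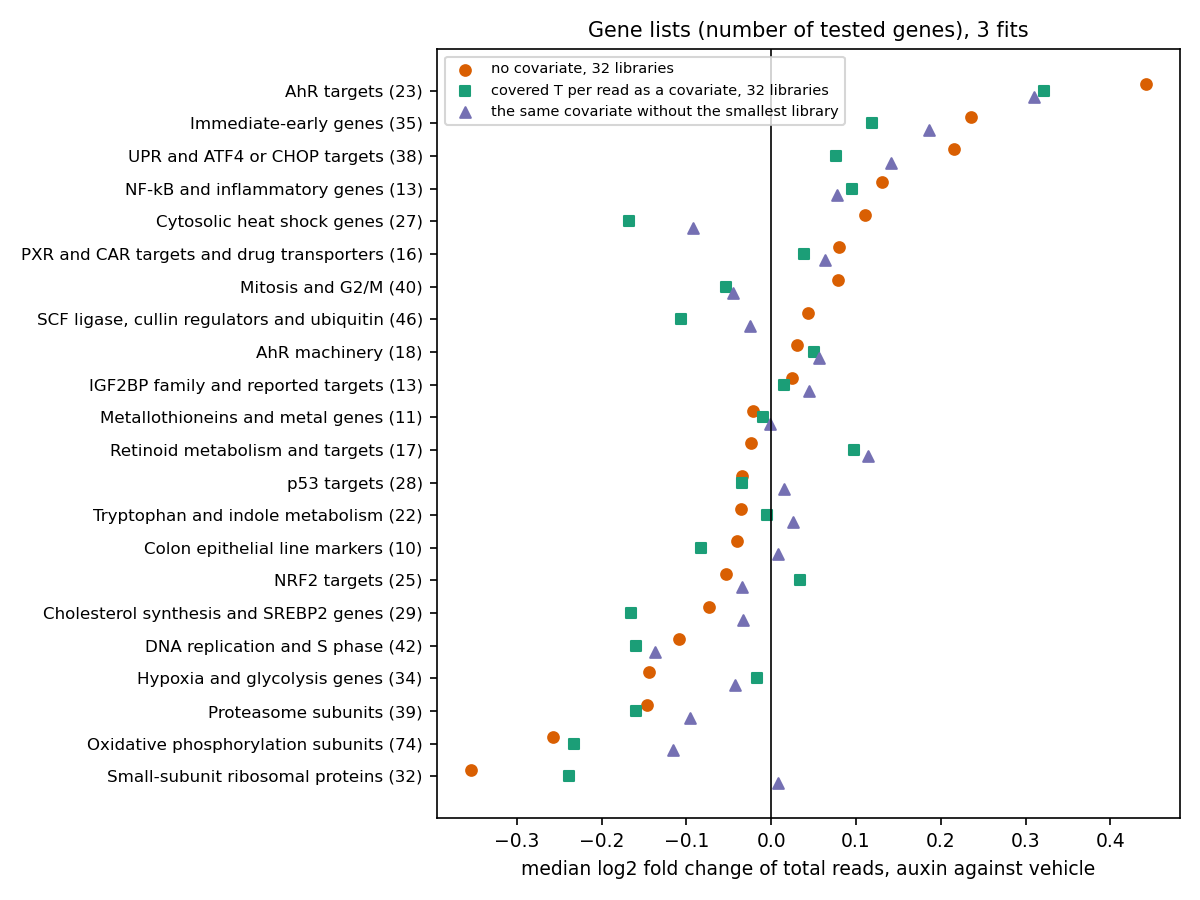
Median log2 fold change of total reads, auxin against vehicle, for gene lists with at least 10 tested genes (number in brackets) under 3 fits. The AhR targets stay between 0.31 and 0.44, while the small-subunit ribosomal proteins go from -0.35 to 0.01.

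The other lists are also set against 4.83% higher and 2.33% lower over all genes, and most of their counts are of 1 or 2 genes. DNA replication genes counted 5 lower (MCM3, GINS1, TK1, POLD1, RPA3) and 1 higher (MCM2) of 42, cholesterol synthesis genes 2 lower (FDPS, ACACA) of 29, and mitosis genes 1 in each direction of 40 (ANLN higher, CDC20 lower). With the T covariate on 32 libraries 9 replication genes were lower and 0 higher, and 6 mitosis genes lower and 1 higher. All genes then stood at 4.16% and 2.78%. With the covariate and without the smallest library 1 replication gene was higher, and none of either list was lower. Hypoxia and glycolysis genes counted 2 higher of 34 (KDM3A, PGAM1), inflammatory genes 2 higher of 13 (LIF, TNFAIP2), drug-metabolism genes of the PXR and CAR type 2 higher of 16 (SULT1A1, MGST3), and p53 targets 1 higher of 28 (TIGAR). The tryptophan and indole metabolism list counted ACAT1 higher and DLST lower of 22. Retinoid genes counted 1 higher of 17, which was ALDH1A3, the AhR machinery 1 higher of 18 (EP300), and no metallothionein or metal gene of 11 passed. Among the epithelial markers tested CDH1 and CLDN7 rose and KRT18 fell.

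In labelled reads 41 genes rose and 13 fell (edgeR, adjusted p under 0.05), 0.601% of 8980 tested (0.457% higher, 0.145% lower). TRIOBP, an actin-bundling protein, led by p. Its labelled level was 121, 108, 196 and 142.5 CPM with vehicle and 408, 345, 463 and 318 CPM with auxin, with no overlap (1.42 ± 0.19, edgeR adjusted p = 3e-06), and it was called under all 19 alternatives. In total reads it changed by 1.10 ± 0.18 (edgeR adjusted p = 0.00239), from 152 ± 41.1 to 326 ± 69.4 CPM (SD, n = 4). ARID3A, a protein that binds AT-rich DNA, was at 41.0, 29.2, 53.8 and 26.6 labelled CPM with vehicle and 95.9, 81.5, 119 and 91.4 with auxin (1.35 ± 0.26, edgeR adjusted p = 0.00409). HMCES rose in labelled reads too, by 2.88 ± 0.48, and SRXN1, MCM2, COPS7A, CLDN7, ANLN and CENPA were also among those that rose. ADPRS, REX1BD, GBF1, CDK10, TK1, RPL39, RPL37A, NOP56, NUP62 and ATP5IF1 were among those that fell, by 0.58 to 0.90 on the log2 scale.

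For the AhR targets labelled reads were few, and none of 19 tested passed, at a list median of 0.49. ALDH1A3 had 122 labelled reads over the vehicle libraries and 142 over the auxin libraries, a log2 fold change of 0.27 ± 0.29 (edgeR adjusted p = 0.730). CYP1B1 had 106 and 149, at 0.51 ± 0.27, and TIPARP 322 and 741, at 1.26 ± 0.39 (edgeR adjusted p = 0.399 and 0.125). The labelled share of ALDH1A3 was 4.33, 4.36, 6.49 and 3.72% with vehicle and 2.65, 3.95, 5.22 and 2.84% with auxin, and that of TIPARP 75.0, 59.0, 75.2 and 82.3% against 80.1, 76.4, 78.9 and 77.0%. In both groups ALDH1A3 was lightly and TIPARP heavily labelled, and the difference between groups passed for neither share.

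The labelled share fell in 19 genes and rose in none (edgeR, each kind of read on its own scale), 0.212% of 8980 tested. SLC35B2, a Golgi transporter of the sulfate donor PAPS, went from 80.0, 63.6, 44.1 and 53.3% to 9.42, 11.1, 10.0 and 23.4%. Every auxin share was below every vehicle share. The log2 change in the ratio of labelled to other reads, the scale of this test, was -3.06 ± 0.52 (SE, edgeR adjusted p = 0.000529). Its total reads moved the other way, from 3.18, 3.27, 14.0 and 3.65 CPM to 50.1, 27.5, 53.3 and 13.0 CPM, with vehicle replicate 3 just above auxin replicate 4 (2.53 ± 0.58, edgeR adjusted p = 0.0123). At such low levels the SLC35B2 shares of vehicle replicates 1, 2 and 4 rest on few reads and are imprecise. NDUFB3, a complex I subunit, went from 54.3% ± 19.2 to 11.9% ± 3.24 (SD, n = 4) while its total reads rose by 2.57 ± 0.58, and TMSB4X, thymosin beta 4, from 18.0% ± 8.98 to 4.14% ± 0.944 while its total reads rose by 2.10 ± 0.58.

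AKT1, a growth kinase, showed the same pair of changes, its share at 39.5, 27.1, 25.6 and 42.6% with vehicle and 9.03, 13.5, 11.3 and 18.6% with auxin, and its total reads at 13.7, 14.3, 29.6 and 14.8 CPM against 99.6, 65.1, 98.4 and 28.2 CPM. Vehicle replicate 3 and auxin replicate 4 were again the libraries nearest the other group in total reads. SNX3, WRAP73, PIP4K2C, EWSR1, DNMT1 and KHDC4 completed the 10 named, and total reads passed as higher in all 10 but KHDC4 (1.15 ± 0.39, edgeR adjusted p = 0.0674). None of the 19 passed when vehicle replicates 1 and 2 were left out (edgeR, 452 of all genes at an unadjusted p under 0.05), nor by limma on conversions per covered T position (505 at an unadjusted p under 0.05). By limma on log2 ratios, without a covariate, 6 did. With covered T positions per read as a covariate and without the smallest library, limma on log2 ratios called none (383 at an unadjusted p under 0.05).

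**Figure D5:**
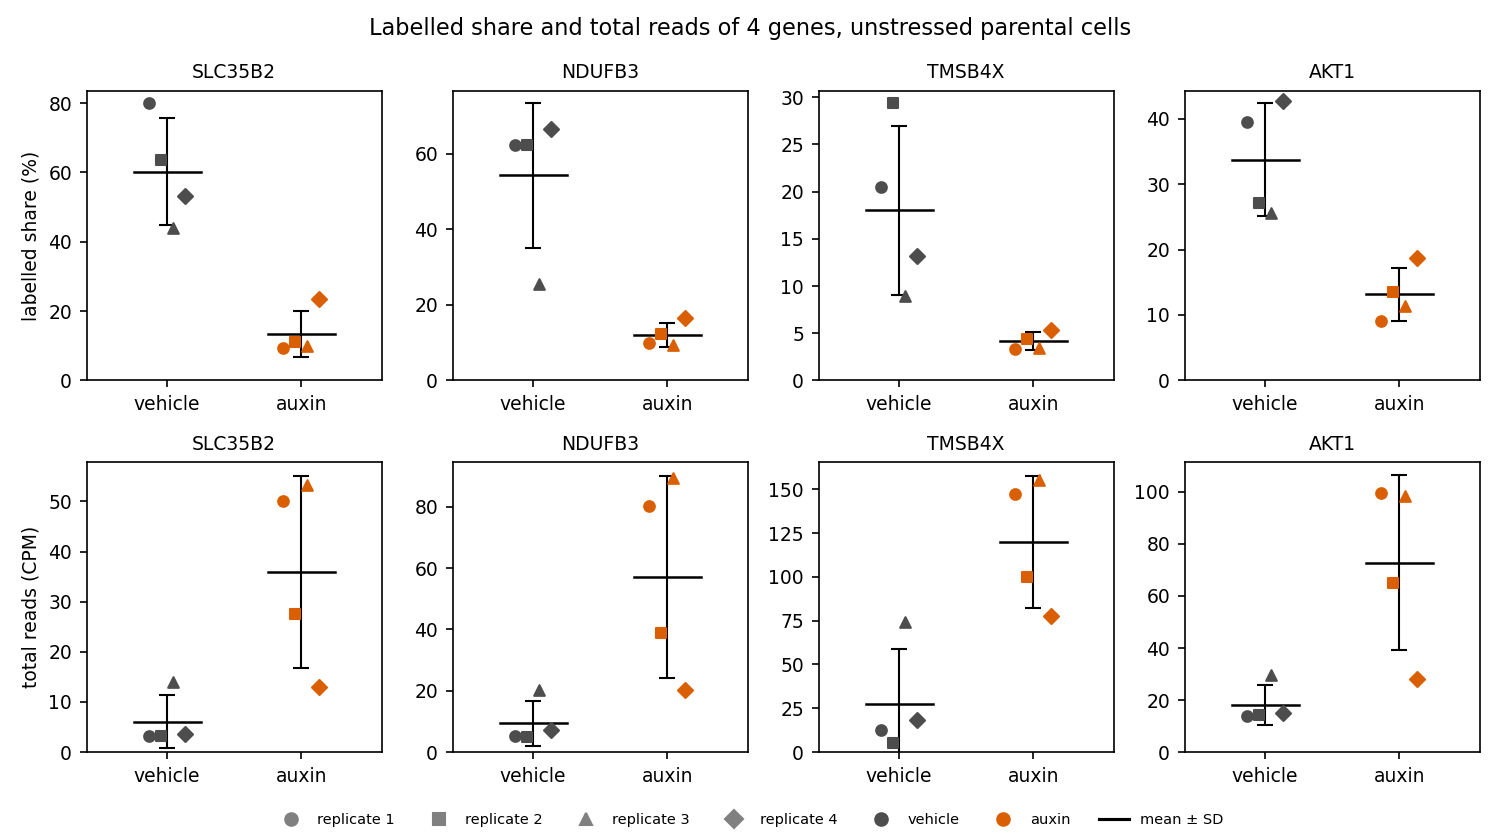
Labelled share (top, percent) and total reads (bottom, CPM) of SLC35B2, NDUFB3, TMSB4X and AKT1 in the 4 vehicle (grey) and 4 auxin (orange) libraries of unstressed parental cells, with mean ± SD. Each mean share is lower and each mean total higher with auxin, though the totals of SLC35B2, NDUFB3 and AKT1 overlap, for SLC35B2 from 60.3% to 13.5% in share. Most vehicle shares of SLC35B2 rest on few reads.

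The auxin effect in unstressed tagged cells was then set beside this one; the 2 comparisons share no library. There 44 genes were higher and 32 lower (edgeR, 0.393% and 0.286% of 11186). Of the 540 that rose here 16 also rose there, 2.96% of the first list and 36.4% of the second, where 4.83% of all tested genes rose here. The 4 that fell in both (1.53% and 12.5%) were NOP56, NDUFAF2, NDUFAF3 and C2CD2L, where 2.33% of all tested genes fell here. The 16 were ALDH1A3, CYP1B1, ASF1A, C3orf52, CTNNAL1, DOCK1, MAGEA3, MTFR1, NCSTN, SHMT1, SNX15, SNX3, TRIOBP, TSC22D1, ZC3H7B and ZNF503. ZNF503, a zinc-finger repressor, had tight groups, at 226, 223, 244 and 252 CPM with vehicle and 331, 332, 339.6 and 333 CPM with auxin (0.50 ± 0.08, edgeR adjusted p = 0.00369, called under 17 of 18 alternatives) and 0.36 in tagged cells (edgeR adjusted p = 0.0425). T coverage moved the same way in the tagged cells, from 21.6 to 22.1 with vehicle to 22.6 to 24.1 with auxin, and 512 of the 540 genes had the same sign there. In stressed parental cells the vehicle libraries spanned 21.9 to 23.3 and the auxin libraries other than the smallest 22.6 to 22.9. The smallest, at 15.1, was part of this fit. Of the 540 genes 181 had the same sign in the stressed parental cells. The share of all tested genes with the same sign was not counted, so these counts cannot be told from a shift common to all genes.

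With the T covariate and without the smallest library the order of these counts turned. Of the 84 genes then higher here, 25 had the same sign in tagged cells and 81 in stressed parental cells, and of the 38 lower, 22 and 38 did. For this fit too the same-sign share over all tested genes was not counted. In tagged cells 4 of the 84 also passed (ADGRF1, ALDH1A3, CYP1B1, SLC7A11), 4.76% of the list here and 80.0% of the 5 there. Over all tested genes this fit called 0.751% higher and 0.34% lower here. In stressed parental cells 11 passed as higher in both (13.1% and 39.3%), among them ALDH1A3, CYP1B1, ZNF503 and IER3, an immediate-early gene, and 3 as lower (7.89% and 37.5%), HSPE1, S100A10 and TSPAN4. The comparisons share the covariate's fitted slope in this fit, so these counts are not independent of each other.

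The auxin effect differed between the lines in 2 genes, SH2B1 and FOXK1 (edgeR test of the difference, 0.0179% of 11186). SH2B1, an adaptor of insulin and cytokine receptors, was read at 49.6, 52.9, 40.7 and 42.1 CPM with vehicle and at 70.2, 71.9, 62.4 and 67.9 CPM with auxin in parental cells. In tagged cells it went the other way, from 66.9, 69.0, 66.1 and 70.7 CPM to 51.5, 38.2, 46.2 and 49.5 CPM, and the difference of the effects was -1.12 ± 0.17 (edgeR adjusted p = 0.00395). FOXK1, a forkhead repressor of autophagy genes, was read at 39.8, 47.0, 51.8 and 53.8 CPM with vehicle and at 85.9, 70.6, 88.0 and 69.2 CPM with auxin in parental cells, a rise of 0.70 ± 0.12. In tagged cells it did not pass (-0.27 ± 0.12, edgeR adjusted p = 0.204), and the difference was -0.98 ± 0.17 (edgeR adjusted p = 0.0149). Between stressed and unstressed parental cells 1 gene differed (0.00894%), ZNF227, a zinc-finger gene at 0.297 to 1.66 CPM in the vehicle libraries here. At an unadjusted p under 0.05 (edgeR) 3202 of the 11186 genes differed between stressed and unstressed parental cells. DESeq2 called 1146, and edgeR 0 to 2344 with 1 replicate left out. The count of 1 therefore does not show that the auxin effect was the same in the other genes. In labelled reads TRIOBP alone differed between stressed and unstressed parental cells, and in the labelled share SLC35B2 alone did (each 0.0111% of 8980 tested).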

How the data were processed

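Per the file headers, each library came as 1 deposited table of whole-number counts per RefSeq transcript region (reads, labelled reads, covered T positions and conversions), with the region's length and T content. The names of the deposited files carry Slamdunk, a SLAM-seq read counter, whose version and settings are not given in the sources used here. Libraries were 3′-end libraries, per the labels' protocols. The genome build was hg38 per the submitters' processing notes. The number of conversions that makes a read labelled is not given in the sources used here. Transcripts were matched to RefSeq symbols (40006 of 40767 curated IDs, with 37.1 to 38.1% of counts unmatched in the 8 libraries), the transcript with most reads stood for its gene, and 750 genes with counts identical to another's were dropped, which left 14427 genes with reads.

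Total and labelled reads were tested with edgeR 4.0.16 (quasi-likelihood F-test, TMM scaling, filterByExpr, Benjamini-Hochberg adjustment over all tested genes, threshold 0.05) in 1 fit over all 32 libraries in 8 groups, and the labelled share with labelled and other reads in 1 model with a term per library. CPM are on the TMM scale. DESeq2 1.42.0 and limma 3.58.1 served as alternatives, the latter on log2 ratios with a pseudocount of 0.5. Fits were tested on simulated data. All replicate pairs differed by more than counting noise (chi-square over its degrees of freedom, 2.25 to 18.2), so each library counts once. Named genes were the up to 10 highest and lowest by fold change among called genes without overlap, list members past the threshold and a panel of 23 genes. The members and the 25 lists were chosen with earlier results of these data known. Counts limit precision: labelled shares per library have 95% Wilson intervals such as 13.38 to 13.45%, which cover counting error only, as the reads are not unique molecules. Some genes are not reported here.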

Additional observations from a re-analysis of the deposited data

Results flagged for a closer look

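In 11 sets of 4 libraries 1 library stood apart from the other 3 by Dixon's test at its 95% value, of 230 sets looked at, where chance alone gives about 1 in 20. In total reads these were vehicle replicate 4 for CUL1 (137 CPM), vehicle replicate 3 for IL18 (11.8 CPM), POLD1 (36.2 CPM) and USF1 (0.71 CPM), and vehicle replicate 2 for MKKS (16.9 CPM). In labelled reads they were vehicle replicate 3 for ALDH1A3 (79.8 CPM) and vehicle replicate 4 for HMCES (9.5 CPM). In labelled shares they were vehicle replicate 1 for FOXK1 (39.2%), vehicle replicate 2 for HMOX1 (31.4%), vehicle replicate 3 for NDUFB3 (25.6%) and auxin replicate 4 for SLC35B2 (23.4%).

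By edgeR's test of the difference itself, the auxin effect on total reads was lower in unstressed tagged than in parental cells for SH2B1 (-1.12 ± 0.17, adjusted p = 0.00395) and FOXK1 (-0.98 ± 0.17, adjusted p = 0.0149). It was lower in stressed than in unstressed parental cells for ZNF227 (-3.67 ± 0.64, edgeR adjusted p = 0.0347). In labelled reads the stressed minus unstressed difference passed for TRIOBP (-1.34 ± 0.27, edgeR adjusted p = 0.0477). In the labelled share it passed for SLC35B2 (3.41 ± 0.70 in the log2 ratio of labelled to other reads, edgeR adjusted p = 0.0429).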

How the results depend on the processing

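The count of 801 genes called in total reads depended strongly on the settings, and the causes were not tested. It was 1643 with only the 8 compared libraries (53.4% of them higher, against 67.4%), 1326 by DESeq2, 2808 without the series' smallest library (55.0% higher), 776 with covered T positions per read as a covariate (40.1% higher), 122 with that covariate and without the smallest library, and 2 without the 2 vehicle libraries of fewest covered T positions. Leaving out 1 replicate gave 48 to 1507. Labelled reads gave 54 genes, 297 with the 8 libraries, 134 by DESeq2, 205 without a filter, 30 scaled by total reads, 28 with the covariate, 6 with it and without the smallest library, 1 without the 2 vehicle libraries, 313 without the smallest library, and 2 to 227 with 1 replicate left out. The labelled share gave 19, 29 without centring, 6 by limma on log2 ratios, 0 by limma on conversions (505 at an unadjusted p under 0.05), 0 by limma with the covariate and without the smallest library (383), 0 without the 2 vehicle libraries (452), and 3 to 67 with 1 replicate left out. The tagged minus parental difference gave 2, 29 by DESeq2, 133 with the covariate, 354 with it and without the smallest library, 66 without the smallest library, and 1 to 4 with 1 replicate left out. The stressed minus unstressed difference gave 1, 1146 by DESeq2, 0 with the covariate (781 at an unadjusted p under 0.05 by edgeR) and 0 with it and without the smallest library (641), and 0 to 2344 with 1 replicate left out, the 0s with 2266 to 3314 at an unadjusted p under 0.05. The difference in percent of reads labelled ranged from -0.403 to 0.000475 with 1 replicate left out, reversing without auxin replicate 2. That in T conversion ranged from -0.147 to -0.0905. Without vehicle replicate 4 and, at -0.151, as a median over genes, its exact permutation p was 0.0286, not adjusted over the 2 measures. RPS3 reversed to 0.069 with the covariate and without the smallest library, and RPS3A to 0.91 with the longest counted region. Equal replicate numbers share only a number: vehicle and auxin libraries of the same number correlated at -0.046, 0.113, 0.333 and 0.022 in their deviations. With the replicate number as a block 907 genes were called in total reads, 57 in labelled reads, 5 in the share by limma, 2 for the line difference and 1 for the stress difference, and exact permutation within pairs gave p = 0.5 for the percent labelled and 0.125 for T conversion. Genes of few reads, CYP1A1 among them, and the labelled reads of ALDH1A3 and CYP1B1 are limited by depth.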
